A study of Mus musculus with 16 samples.

Results

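The libraries numbered 10 of induced pluripotent stem cells (iPSCs) were compared with those numbered 4, first as 4 libraries against 4 and then within each of the title prefixes KIX and KI. The 8 libraries, out of 16 in the series, were taken by their titles: KID10, KIV10, KIXD10 and KIXV10 against KID4, KIV4, KIXD4 and KIXV4. Per the labels, every library came from iPSCs reprogrammed from mouse embryonic fibroblasts of the genotype ColA1_miR203; Rosa26rtTA, in which doxycycline acts through a transactivator expressed from Rosa26 to switch on a microRNA-203 transgene. All 8 are labelled with the same treatment, doxycycline (DOX) for 5 to 7 days, and the cells were grown on feeders in DMEM with serum replacement. The labels do not define KI, KIX, D, V, 1, 4 or 10, nor say how many lines or clones were used or whether D and V were separate cultures. The series names times of 5 and 20 days after an induction of 5 days, but does not tie them to the title numbers, so 10 and 4 are used here only as names. Where D and V share a culture, the p-values within KIX, within KI and of their difference measure technical spread. In the comparison of 4 libraries against 4, called pooled here, the spread also holds the differences between KI and KIX.

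Values are FPKM, fragment numbers corrected for transcript length and for the size of the library, listed throughout in the order KI D, KI V, KIX D and KIX V. A change is the difference in mean log2(FPKM + 1), number 10 minus number 4, given with its standard error (SE), and it understates the fold of genes near 1 FPKM. It was called at a limma adjusted p under 0.05, and a call given with its adjusted p is marked as lost where another setting or a left-out library ended it. Where such a setting moved a gene list's count by over 1.5 times, its count stands in brackets, with libraries left out 1 at a time. The brackets leave out the fit with a mean for each prefix and number, which called 4678 genes pooled. The test ran over the 12877 genes of 23284 that reached at least 1 FPKM in at least 2 of the 8 libraries. The libraries had 12154 to 12375 genes at 1 FPKM or more. Among abundant genes, D differed from V by an SD of 0.103 to 0.198 on the log2 scale where prefix and number were shared. The SD was 0.245 to 0.328 between prefixes at the same letter and number, and 0.414 to 0.532 between numbers at the same prefix and letter. On the leading axis of a principal component analysis (34.2% of variance) number 10 lay at 18.67 to 34.52 and number 4 at -26.81 to -21.15. Markers of pluripotent cells were abundant in all 8 libraries, as the label says. Pou5f1, the transcription factor OCT4 that sustains the pluripotent state, had 920.2, 869, 1107 and 1113 FPKM at number 10, against 1089, 1001, 935 and 989 FPKM at number 4. Markers of feeder-type fibroblasts were present too: their summed level was 1566.4, 1805.5, 997.75 and 1133.7 FPKM at number 10, against 1012.5, 1042.7, 1085.7 and 989.09 FPKM at number 4. In such bulk RNA, fewer cells of a type and less RNA per cell cannot be told apart.

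Mir203, the gene of the microRNA that the transgene carries, was listed at 0 in KID10, KIV10, KIXD10 and KIXV10, and also in KID4 and KIV4, against 2254 FPKM in KIXD4 and 1728 FPKM in KIXV4. The KIX libraries numbered 1 had 1868 and 1969 FPKM, and the KI libraries numbered 1 were listed at 0. Every library carries the same DOX label, so the gene separated the KIX libraries of numbers 4 and 1 from the other iPSC libraries in a way the labels do not give. The annotated hairpin is 76 bases long, so few fragments give a large FPKM, and mature microRNAs carry no polyA tail, so the value does not measure them. The 2 mature forms are shown because their seed, bases 2 to 8 in capitals, sets which messenger RNAs they bind (RefSeq, GRCm38.p6, 5′ to 3′).
mmu-miR-203-3p, chr12:112130927-112130948, plus strand: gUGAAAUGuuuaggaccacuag
mmu-miR-203-5p, chr12:112130889-112130910, plus strand: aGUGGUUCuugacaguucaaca

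At number 10, 1659 genes differed from number 4 (12.9% of those tested). Of these, 982 were higher (7.63%) and 677 lower (5.26%), and at least a 2-fold change was seen for 241 higher genes (1.87%) and 55 lower genes (0.427%). The share of calls that were higher was 59.2% on the deposited values, 43.9% after quantile normalization and 45.2% after median scaling, so the balance of rises and falls depended on the scaling, while genes called in the pooled comparison and named below kept their direction under it. Within KIX, 3949 genes were called (30.7%), 1980 higher (15.4%) and 1969 lower (15.3%). Within KI, 3427 genes were called (26.6%), 2109 higher (16.4%) and 1318 lower (10.2%). The share of higher calls within KI was 61.5%, against 42.9% after quantile normalization and 40.6% after median scaling. Both prefixes called 646 genes higher (5.02%) and 423 lower (3.28%), a share of higher calls of 60.4%, against 43.6% after quantile normalization and 46.2% after median scaling, while 240 genes moved in opposite directions (1.86%), 102 of them higher in KIX and lower in KI (0.792%) and 138 the reverse (1.07%). Calls in KIX alone numbered 2640 (20.5%) and calls in KI alone 2118 (16.4%). All 4 number 10 libraries lay above all 4 number 4 libraries for 1622 genes (12.6%) and below them for 1287 (9.99%), and 964 (7.49%) and 660 (5.13%) of the genes tested were also called. For 2828 genes (22%) the change itself differed between KIX and KI, with 1042 changes higher in KIX (8.09%) and 1786 lower (13.9%). After median scaling 53.7% of those differences were higher in KIX, against 36.8% on the deposited values and 48.3% after quantile normalization.

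**Figure D1:**
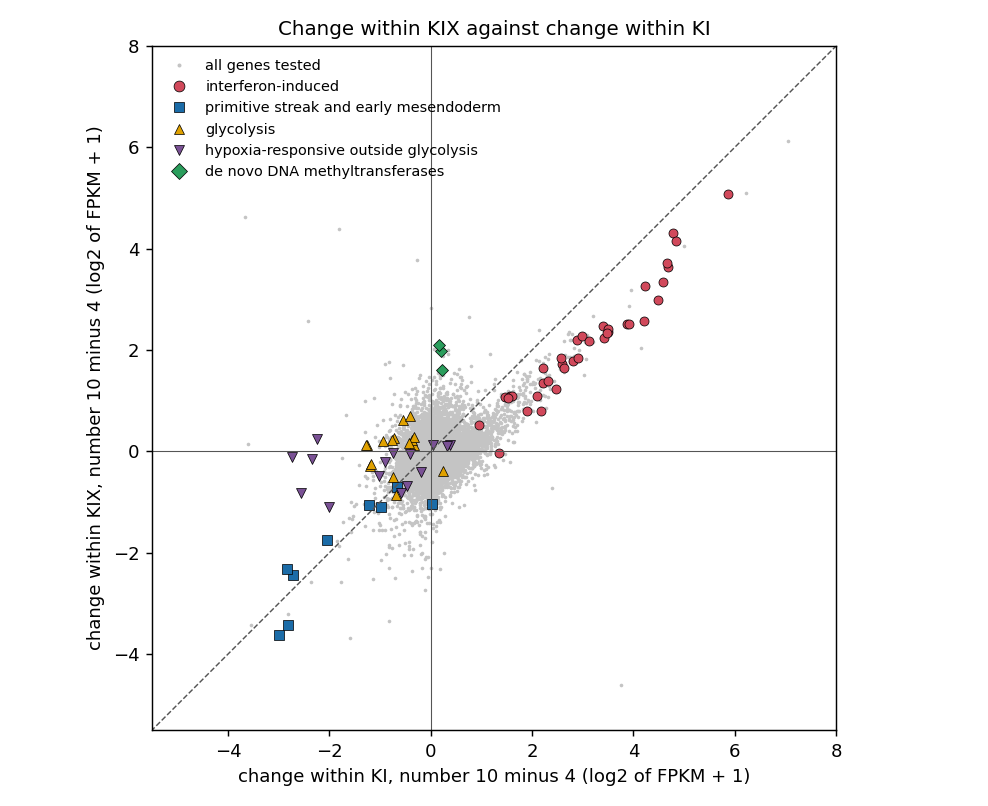
Change of 12723 genes between numbers 10 and 4, as the difference in mean log2(FPKM + 1), within KI (x axis) and within KIX (y axis); each point is a gene, coloured points belong to 5 gene lists, and the dashed line marks equal change. The interferon-induced genes lie at the upper right, with median changes of 2.184 within KIX and 2.916 within KI, and the primitive streak genes at the lower left, with medians of -1.756 and -2.039.

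The rises were led by genes of the interferon response. Interferons are secreted antiviral signals. Their receptors act through JAK kinases and the transcription factors these switch on, which bind short elements in the promoters of antiviral genes, and pluripotent cells are known for a weak response. Of 37 interferon-induced genes, all tested, 36 rose and none fell in the pooled comparison, with a median change of 2.534 against 0.0056 over all genes. The same 36 did not overlap between the numbers. All 37 reached the level for testing in the number 10 libraries alone, and 35 did so in the number 4 libraries alone. The rest, Rsad2 and Mx1, were tested only through the number 10 libraries, so for them the filter favoured a rise. Within KIX 36 rose, with a median of 2.184, and within KI 37 rose, with a median of 2.916.

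Cxcl10, a chemokine that draws activated T cells, had the largest rise: 498, 821, 376 and 467 FPKM in KID10, KIV10, KIXD10 and KIXV10, against 4.18, 3.54, 6.15 and 4.08 FPKM in KID4, KIV4, KIXD4 and KIXV4. Its mean was 541 ± 194 FPKM at number 10 and 4.49 ± 1.14 FPKM at number 4 (SD, n = 4 libraries each), a change of 6.58 ± 0.23 (limma adjusted p = 8.33e-06). All number 10 libraries stood far above all number 4 libraries, and KIV10 was the highest. The libraries numbered 1 lay between, at 72.1, 88.6, 83.4 and 50.1 FPKM. Ifit2, whose protein binds RNA and restrains viral translation, had 168, 279.7, 115 and 158 FPKM at number 10, against 2.68, 2.84, 3.45 and 2.64 FPKM at number 4, a change of 5.47 ± 0.23, adjusted p = 1.87e-05. Rsad2, the antiviral enzyme viperin, had 34.7, 65.7, 32.2 and 45 FPKM at number 10, against 0.833, 0.728, 1.16 and 0.816 FPKM at number 4, a change of 4.54 ± 0.20, adjusted p = 1.97e-05. Cmpk2, a nucleotide kinase encoded beside it, changed by 4.49 ± 0.23, adjusted p = 2.9e-05. None of these genes overlapped between the numbers, and none exceeded 6.15 FPKM in a number 4 library.

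Ifit3 and Ifit1, neighbours of Ifit2 on chromosome 19, changed by 4.16 ± 0.23 and 3.97 ± 0.27, adjusted p = 7.3e-05. Isg15, a ubiquitin-like protein that is attached to other proteins during the response, had 614, 688, 363 and 441 FPKM at number 10, against 33.1, 23.5, 57.9 and 42.4 FPKM at number 4, a change of 3.74 ± 0.29, adjusted p = 0.000139. Usp18, the protease that removes Isg15 and dampens receptor signalling, had 161, 205, 125 and 148 FPKM at number 10, against 9.89, 7.74, 16.1 and 10.9 FPKM at number 4, a change of 3.74 ± 0.21, adjusted p = 3.88e-05. Isg15 and Usp18 were also higher at number 1 (128 to 176 and 39.7 to 56.0 FPKM) than at number 4. Mx1, an antiviral GTPase, had 27.2, 40.8, 16.6 and 23.3 FPKM at number 10, against 0.265, 0.453, 0.636 and 0.521 FPKM at number 4, a change of 4.19 ± 0.23, although its annotation in the reference is a transcribed pseudogene. Iigp1, an immunity-related GTPase, changed by 3.96 ± 0.26. Each of these 10 genes stayed called under every alternative tried.

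**Figure D2:**
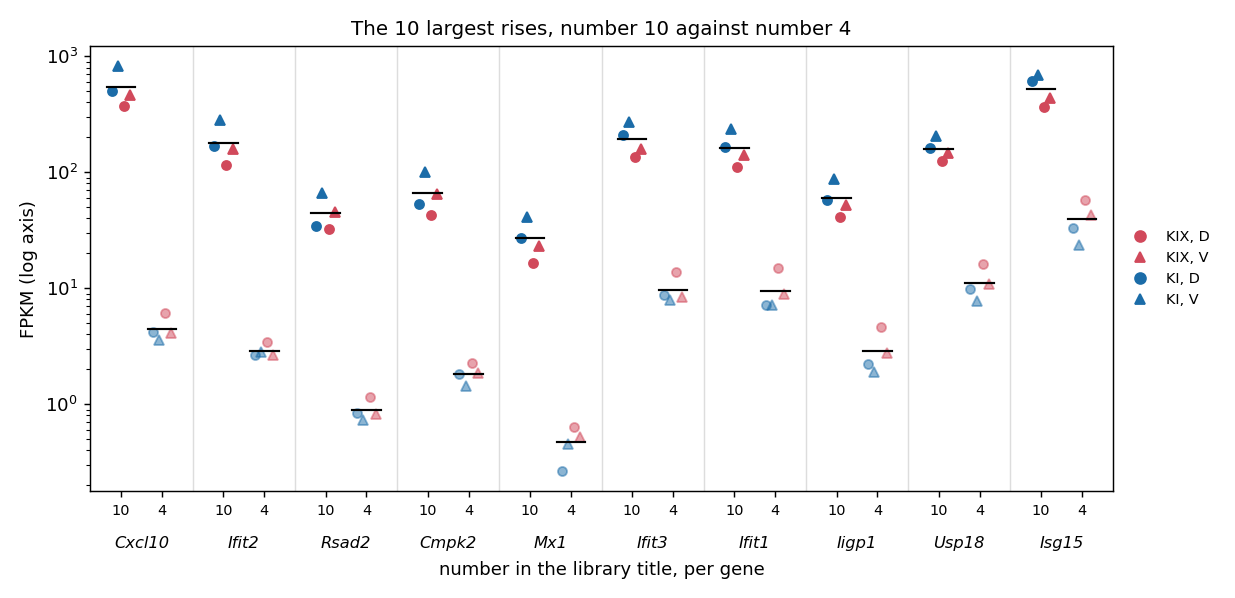
FPKM (log axis) of the 10 genes with the largest rises, in the number 10 libraries (left of each pair) and the number 4 libraries (right, paler); circles are D, triangles are V, blue is KI, red is KIX, and bars are means. For each gene the 4 number 10 libraries lie above the 4 number 4 libraries, as for Cxcl10 at 376 to 821 FPKM against 3.54 to 6.15 FPKM.

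Promoters of some of these genes are shown because the letters GAAA, any 2 bases and GAAA again, on either strand, make up the core of the interferon-stimulated response element. Of the 37 genes, 28 matched a RefSeq promoter (250 bases before to 50 after the start), and 18 of those (64.3%) held the letters, against 3.99% of all 27025 genes with a promoter. Matches are in capitals, also where overlapping, in 100-base stretches of GRCm38.p6 read 5′ to 3′ along the gene. A match is a description of the letters, not of binding.
Cxcl10, chr5:92349040-92349139, minus strand: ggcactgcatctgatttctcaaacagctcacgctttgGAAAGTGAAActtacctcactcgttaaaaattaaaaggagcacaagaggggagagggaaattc
Rsad2, chr12:26456518-26456617, minus strand: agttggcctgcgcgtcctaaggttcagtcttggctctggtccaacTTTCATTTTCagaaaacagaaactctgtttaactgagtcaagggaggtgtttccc
Ifit3, chr19:34583328-34583427, plus strand: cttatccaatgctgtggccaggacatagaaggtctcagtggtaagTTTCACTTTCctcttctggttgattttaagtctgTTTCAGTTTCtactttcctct
Ifit1, chr19:34640740-34640839, plus strand: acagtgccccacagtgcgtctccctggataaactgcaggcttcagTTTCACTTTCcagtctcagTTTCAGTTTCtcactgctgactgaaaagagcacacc
Isg15, chr4:156200842-156200941, minus strand: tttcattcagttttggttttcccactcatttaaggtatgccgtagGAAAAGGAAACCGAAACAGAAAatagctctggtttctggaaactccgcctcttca
The Ifit3 and Ifit1 stretches hold 2 separate matches each, and in Isg15 overlapping matches form a run. Cxcl10 belongs to the chemokine list, where 2 of 13 matched genes (15.4%) held the letters. The promoters of Ifit2 and Cmpk2, also among the 10 largest rises, held none. The letters stood in the promoters of 4 of 14 matched MHC class I genes (28.6%) and 1 of 10 primitive streak genes (10%).

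Among the transcription factors of the list, Irf7, which switches on interferon genes, had 187, 189.8, 102 and 119.7 FPKM at number 10, against 50.6, 49.1, 73.0 and 54.5 FPKM at number 4, a change of 1.35 ± 0.22, adjusted p = 0.00661. Irf7, and Xaf1 below, were chosen after their values were seen. Xaf1, a pro-apoptotic interferon-induced gene, was the 1 list member that did not pass the pooled test: it had 35.7, 32.4, 41.1 and 37.9 FPKM at number 10, against 13.5, 12.2, 40.4 and 40.0 FPKM at number 4. It rose within KI (1.34 ± 0.08, adjusted p = 9.79e-05), while its change within KIX was -0.03 (adjusted p = 0.83), and the KIX libraries of number 4 were as high as those of number 10. For 24 of the 37 genes the rise was smaller within KIX than within KI by the test of the difference, with a median difference of -0.961, and for none was it larger. That count was 6 to 7 without KIXD10 or KIXD4.

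The summed level of the 37 genes was 3842.5, 4515.5, 2780.6 and 3247.4 FPKM at number 10, against 691.19, 597.6, 948.24 and 807.52 FPKM at number 4. The order of the number 10 libraries, KIV10, KID10, KIXV10 and KIXD10, was also that of the fibroblast markers. Within KIX, the fibroblast score (mean log2(FPKM + 1) of 12 markers) was 5.4796 and 5.5659 at number 10, against 5.4824 and 5.3859 at number 4. The median rise of the interferon-induced genes within KIX was 2.184. With the fibroblast score as a covariate, 35 of the 37 genes rose, with a median of 2.158. The score follows the level of the markers only, and a part of the feeders in these rises was not tested.

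Among ligands, sensors and signal carriers, 14 of 16 genes were tested and 6 rose (3 without KID10, KID4 or KIXV4, 3 with a replicate block or with the fibroblast score as a covariate). Ifnb1, which encodes interferon beta, was too low to test. Tlr3, the endosomal sensor of double-stranded RNA, had 10.4, 16.4, 7.22 and 9.12 FPKM at number 10, against 0.693, 0.616, 0.997 and 0.718 FPKM at number 4, a change of 2.70 ± 0.21, adjusted p = 0.000139. Tlr3 was tested only through the number 10 libraries, so for it the filter favoured a rise. Socs1, an inhibitor of JAK kinases, had 23.7, 28.3, 24.7 and 28.3 FPKM at number 10, against 11.6, 9.19, 12.8 and 9.15 FPKM at number 4, a change of 1.23 ± 0.12, adjusted p = 0.000349. Neither gene overlapped between the numbers. Tbk1, the kinase that activates IRF3, changed by 0.36 ± 0.06, adjusted p = 0.00916. The kinases Jak1 (0.69 ± 0.17, adjusted p = 0.0301, lost in 7 of 17 alternatives at an adjusted p up to 0.148) and Jak2 (0.75 ± 0.19, adjusted p = 0.0361, lost in 8 of 17 alternatives at an adjusted p up to 0.213) and the receptor chain Ifnar1 (0.29 ± 0.07, adjusted p = 0.0358, lost in 9 of 17 alternatives at an adjusted p up to 0.157) rose in the pooled comparison. The genes called within KIX were Tlr3, Tbk1, Socs1 and Irf1, a transcription factor of the response, which rose, and Mavs, the mitochondrial adaptor of RNA sensing, which fell (-0.60 ± 0.10, adjusted p = 0.00589). The calls of Irf1 and Tbk1 there were lost in 8 and 4 of 14 alternatives. Within KI 9 genes of the list rose and none fell.

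Antigen presentation split by gene and by prefix. Of 17 MHC class I and antigen-processing genes, 8 rose (5 with a replicate block) and none fell (2 without KID10, 1 after median scaling or with small RNA genes left out) in the pooled comparison, with a median change of 0.462. Nlrc5, the transactivator of MHC class I genes, had 5.31, 8.28, 3.80 and 4.40 FPKM at number 10, against 0.469, 0.850, 0.985 and 0.961 FPKM at number 4, a change of 1.79 ± 0.20, adjusted p = 0.000972. Nlrc5 was tested only through the number 10 libraries, so for it the filter favoured a rise. The peptide transporter genes Tap1 (1.2 ± 0.20, adjusted p = 0.00658) and Tap2 (1.03 ± 0.23, adjusted p = 0.0219, lost in 4 of 17 alternatives at an adjusted p up to 0.0791) and the immunoproteasome subunit genes Psmb10 (1.18 ± 0.14, adjusted p = 0.00113) and Psmb9 (1.17 ± 0.16, adjusted p = 0.00307) rose too. H2-T22, a nonclassical class I gene, changed by 1.2 ± 0.20, adjusted p = 0.00715. Within KI 12 of the 17 rose and none fell (1 without KIV4). Within KIX 7 rose (3 without KIXV4) and 5 fell, and the 5 were the classical and related heavy chains H2-K1, H2-D1, H2-Q6 and H2-Q7 and the light chain B2m.

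H2-K1 had 224, 204, 109 and 119 FPKM at number 10, against 287, 232, 305 and 253 FPKM at number 4. It fell within KIX (-1.28 ± 0.13, adjusted p = 0.000964), and its change within KI was -0.27 ± 0.13 (adjusted p = 0.154). The light chain B2m had 798, 849, 422 and 459 FPKM at number 10, against 779, 710.0, 820.3 and 728 FPKM at number 4, and fell within KIX (-0.81 ± 0.10, adjusted p = 0.00162). In both genes the KIX libraries of number 10 were the lowest of the 8. H2-D1 fell within KIX by 0.92 on the log2 scale (adjusted p = 0.00165), and so did H2-Q6 by 1.42 and H2-Q7 by 1.46, although reads of these near-identical paralogs may be split between them. These heavy and light chain genes were named after their values were seen. For 13 of the 17 genes the change was lower in KIX than in KI (2 to 4 without KIXD10 or KIXD4), for none higher. With the fibroblast score as a covariate, 5 rose and 5 fell in the pooled comparison.

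Of 20 chemokines and inflammatory genes, 12 rose and none fell, with a median change of 0.871. Ptx3, a soluble pattern recognition protein, had 114, 175, 38.9 and 66.1 FPKM at number 10, against 7.48, 6.68, 13.2 and 10.2 FPKM at number 4, a change of 3.09 ± 0.42, adjusted p = 0.00292. Cxcl9, which shares the receptor of Cxcl10 and lies beside it on chromosome 5, changed by 1.81 ± 0.24, adjusted p = 0.00254. Cxcl11, on their other side and annotated in the reference as a transcribed pseudogene, changed by 2.31 ± 0.22, adjusted p = 0.000359. Ccl20, an attractant of dendritic cells, had 11.3, 21.4, 4.11 and 9.49 FPKM at number 10, against 0.922, 1.16, 1.53 and 1.59 FPKM at number 4, a change of 2.27 ± 0.38, adjusted p = 0.00722. Vcam1, an adhesion molecule for leukocytes, changed by 1.42 ± 0.24, adjusted p = 0.00777. Ccl2, a monocyte attractant, had 937, 1097, 536 and 620.2 FPKM at number 10, against 270.0, 284, 356 and 318 FPKM at number 4, a change of 1.32 ± 0.22, adjusted p = 0.00732. The number 10 libraries were above the number 4 libraries in each of these genes.

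Within KIX 11 of the 20 rose (5 to 6 without KIXV10, KIXD4 or KIXV4) and 3 fell (0 to 1 without KIXD10 or KIXD4), with a median of 0.563, and within KI 19 rose, with a median of 1.404. The 3 that fell were the neutrophil attractants Cxcl1 (-0.36 ± 0.09, adjusted p = 0.0293, lost in 3 of 14 alternatives at an adjusted p up to 0.167) and Cxcl5 (-0.47 ± 0.14, adjusted p = 0.0475, lost in 7 of 14 alternatives at an adjusted p up to 0.225) and the acute-phase gene Saa3 (-1.51 ± 0.29, adjusted p = 0.00982, lost without KIXD10 at an adjusted p of 0.0585). Ccl5, another T cell attractant, had 137, 123, 47.7 and 73.3 FPKM at number 10, against 86.9, 58.8, 93.4 and 95.9 FPKM at number 4, a rise within KI (0.85 ± 0.23, adjusted p = 0.0337, lost in 6 of 14 alternatives at an adjusted p up to 0.118) and a change within KIX of -0.67 ± 0.23 (adjusted p = 0.0639). The change of Ccl5 differed between the prefixes by -1.52 ± 0.32, adjusted p = 0.0215, lost in 3 of 14 alternatives at an adjusted p up to 0.0797. Cxcl1, Cxcl5, Saa3, Ccl2 and Ccl5 were named after their values were seen. The change was lower in KIX for 14 of the 20 genes (6 to 8 without KIXD10 or KIXD4). With the fibroblast score as a covariate, 8 rose and 1 fell. A part of the feeders in these results was not tested.

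The falls were led by genes of the primitive streak and early endoderm. The primitive streak is where cells of the epiblast leave to form mesoderm and endoderm, under Wnt and Nodal signals, and pluripotent cultures often hold a few cells with such transcripts. Of 14 streak and mesendoderm genes 9 reached the level for testing, and 6 of these fell while none rose, with a median change of -1.898. All 9 reached that level in the number 4 libraries alone, and 4 did so in the number 10 libraries alone. The rest of the 9 were tested only through the number 4 libraries, so for them the filter favoured a fall. The other listed genes were too low in these libraries to test.

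T, the Brachyury factor that defines streak and mesoderm, had 0.623, 5.89, 0.368 and 0.889 FPKM in KID10, KIV10, KIXD10 and KIXV10, against 19.9, 33.0, 18.3 and 19.3 FPKM in KID4, KIV4, KIXD4 and KIXV4, a change of -3.31 ± 0.47, adjusted p = 0.00357. The libraries did not overlap. KIV10 was the highest of the number 10 libraries and KIV4 the highest of the number 4 libraries. Fgf8, a growth factor of the streak, had 1.71, 7.24, 0.668 and 0.891 FPKM at number 10, against 29.4, 35.3, 19.3 and 17.1 FPKM at number 4, a change of -3.12 ± 0.48, adjusted p = 0.00504. The transcription factors Gsc, Lhx1 and Mixl1 of the anterior streak fell in the same way. Gsc had 1.16, 1.45, 0.856 and 0.530 FPKM at number 10, against 12.7, 15.8, 8.02 and 8.27 FPKM at number 4, a change of -2.58 ± 0.23, adjusted p = 0.000254. Lhx1 had 0.0566, 0.752, 0.0914 and 0.0401 FPKM at number 10, against 5.92, 12.5, 4.21 and 4.42 FPKM at number 4, a change of -2.57 ± 0.31, adjusted p = 0.00149. Mixl1 changed by -1.90 ± 0.31, adjusted p = 0.00719 and the ligand Wnt3 by -1.04 ± 0.21, adjusted p = 0.016.

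Each of these genes was at 1 FPKM or less in both KIX10 libraries, and KIV10 was the highest of the number 10 libraries in each. The T-box factor Eomes, named after its values were seen, had 1.69, 5.19, 1.48 and 1.66 FPKM at number 10, against 6.53, 10.9, 4.37 and 4.27 FPKM at number 4, and its change of -1.13 ± 0.35 did not pass (adjusted p = 0.0664), nor did that of the ligand Wnt8a (-0.68 ± 0.39, adjusted p = 0.268). At number 1, T was at 24.8, 23.2, 35.1 and 31.0 FPKM and Gsc at 7.10, 5.49, 6.37 and 5.64 FPKM, above the number 10 libraries in every case. The same 6 genes passed within KI. Within KIX these 6 fell, and so did Hand1, a factor of extraembryonic and lateral mesoderm, with a change of -1.05 ± 0.18, adjusted p = 0.00602. Within KIX the calls of Mixl1 and Wnt3 were each lost in 4 of 14 alternatives, and within KI that of Wnt3 in 2. Of these genes Hand1 alone had a lower change in KIX than in KI by the test, the difference being -1.08 ± 0.25, adjusted p = 0.0263, lost in 3 of 12 alternatives at an adjusted p up to 0.0908.

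Cer1, a secreted inhibitor of Nodal, BMP and Wnt made by endoderm, had the largest of these falls. It had 0.179, 1.67, 0 and 0.0864 FPKM in KID10, KIV10, KIXD10 and KIXV10, against 16.1, 24.2, 8.39 and 12.5 FPKM in KID4, KIV4, KIXD4 and KIXV4, a change of -3.49 ± 0.37, adjusted p = 0.000722. It was at or near 0 in 3 number 10 libraries, with KIV10 the exception, and lay at 9.17, 8.15, 5.70 and 5.11 FPKM at number 1. Of 10 genes of the Nodal pathway 5 fell (2 to 3 without KID10, KIXV10, KID4 or KIXV4, 3 with the fibroblast score as a covariate) and none rose (1 without KID10, 1 with the fibroblast score as a covariate). All 10 reached the level for testing in the number 4 libraries alone, and 8 did so in the number 10 libraries alone. The rest, with Cer1 among them, were tested only through the number 4 libraries, so for them the filter favoured a fall. Lefty2, a Nodal antagonist that Nodal itself induces, had 32.3, 37.8, 45 and 35.5 FPKM at number 10, against 73.7, 67.0, 176 and 185 FPKM at number 4, a change of -1.57 ± 0.34, adjusted p = 0.0199, lost in 3 of 17 alternatives at an adjusted p up to 0.0794, and fell more within KIX than within KI (-1.16 ± 0.18, adjusted p = 0.0106 for the difference). Lefty1 had 50.3, 77.0, 59.0 and 55.7 FPKM at number 10, against 100.2, 98.0, 79.9 and 86.9 FPKM at number 4, a change of -0.60 ± 0.13, adjusted p = 0.0218, lost in 4 of 17 alternatives at an adjusted p up to 0.0619. Cfc1, a coreceptor of Nodal, changed by -1.57 ± 0.19, adjusted p = 0.00135.

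Nodal itself had 31.4, 29.9, 30.4 and 31.0 FPKM at number 10, against 38.1, 37.1, 34.7 and 32.8 FPKM at number 4, and its change of -0.21 ± 0.06 did not pass (adjusted p = 0.0561). Its libraries were close, with number 10 at 29.9 to 31.4 FPKM below number 4 at 32.8 to 38.1 FPKM. The convertases that cut the Nodal precursor moved by prefix. Furin had 29.9, 31.2, 17.9 and 19.3 FPKM at number 10, against 13.0, 15.6, 24.7 and 23.4 FPKM at number 4, a rise within KI (1.05 ± 0.09, adjusted p = 0.000477) and a fall within KIX (-0.36 ± 0.09, adjusted p = 0.0258, lost in 4 of 14 alternatives at an adjusted p up to 0.142). Pcsk6 likewise rose within KI (0.31 ± 0.07, adjusted p = 0.0195, lost in 4 of 14 alternatives at an adjusted p up to 0.0776) and fell within KIX (-0.67 ± 0.07, adjusted p = 0.00112). Within KIX the ligand Gdf3 (0.49 ± 0.06, adjusted p = 0.00162) and the signal factor Foxh1 (0.36 ± 0.11, adjusted p = 0.0486, lost in 6 of 14 alternatives at an adjusted p up to 0.194) rose. Nodal, Furin, Pcsk6, Gdf3 and Foxh1 were named after their values were seen.

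Of 12 endoderm genes 8 were tested. Of these 5 fell and 1 rose. All 8 reached the level for testing in the number 4 libraries alone, and 3 did so in the number 10 libraries alone. The rest were tested only through the number 4 libraries, so for them the filter favoured a fall. Foxa2, a factor of node and endoderm, had 0.462, 2.05, 0.0715 and 0.262 FPKM at number 10, against 7.97, 12.2, 5.86 and 5.99 FPKM at number 4, a change of -2.47 ± 0.34, adjusted p = 0.00289. Sox17, which specifies definitive endoderm, had 0.0611, 0.181, 0.108 and 0.145 FPKM at number 10, against 2.12, 2.53, 1.5 and 1.03 FPKM at number 4, a change of -1.28 ± 0.16, adjusted p = 0.00205. Both were near 0 at number 10, except for Foxa2 in KIV10. The chemokine receptor Cxcr4 (-1.0 ± 0.13, adjusted p = 0.0024) and the factors Gata6 (-0.84 ± 0.15, adjusted p = 0.0107) and Gata4 (-0.93 ± 0.25, adjusted p = 0.0419, lost in 9 of 17 alternatives at an adjusted p up to 0.157) fell too. The adaptor Dab2, known in extraembryonic endoderm, rose (0.92 ± 0.15, adjusted p = 0.0072), with 8.37, 10.6, 6.83 and 6.78 FPKM at number 10, against 2.97, 3.95, 4.57 and 3.74 FPKM at number 4. Cyp26a1, the enzyme that breaks down retinoic acid, is on none of these lists and was among the 10 largest falls, with 0.542, 2.36, 0.224 and 0.184 FPKM at number 10, against 12.6, 17.7, 9.67 and 10.7 FPKM at number 4, a change of -3.01 ± 0.33, adjusted p = 0.000863. Cyp26a1 too was tested only through the number 4 libraries, so for it the filter favoured a fall.

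Simple epithelial keratins, intermediate filaments of trophoblast and other simple epithelia, fell in both prefixes. Krt8 had 9.46, 7.64, 2.92 and 2.94 FPKM at number 10, against 27.1, 27.8, 49.4 and 48.6 FPKM at number 4, a change of -2.63 ± 0.37, adjusted p = 0.00325. Its partner Krt18 had 7.64, 7.38, 3.92 and 3.80 FPKM at number 10, against 18.8, 16.9, 27.0 and 26.7 FPKM at number 4, a change of -1.83 ± 0.24, adjusted p = 0.00247. Krt19 had 2.4, 2.77, 1.29 and 1.26 FPKM at number 10, against 15.1, 8.21, 11.5 and 13.9 FPKM at number 4, a change of -2.17 ± 0.22, adjusted p = 0.000582. The KIX10 libraries were the lowest for all of them. The change of Krt8 was -3.67 ± 0.09 within KIX and -1.58 ± 0.09 within KI, a difference of -2.09 ± 0.13, adjusted p = 0.00165. Krt7 changed by -1.16 ± 0.23, adjusted p = 0.0151, lost with a replicate block at an adjusted p of 0.0722. Of 9 trophoblast and keratin genes 6 were tested, 4 of them fell, and the trophoblast factors Cdx2, Gata3 and Elf5 were too low to test.

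**Figure D3:**
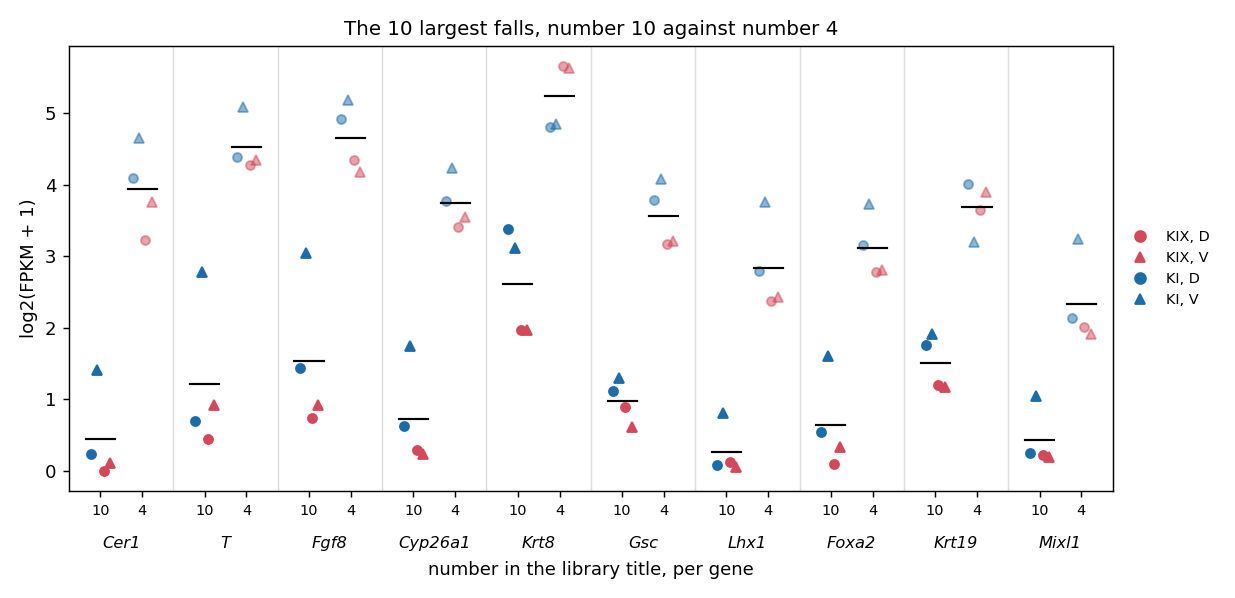
log2(FPKM + 1) of the 10 genes with the largest falls, in the number 10 libraries (left of each pair) and the number 4 libraries (right, paler); circles are D, triangles are V, blue is KI, red is KIX, and bars are means. The groups do not overlap, and KIV10 is the highest number 10 library for the streak genes, as for T at 5.89 FPKM against 0.368 to 0.889 FPKM in the other 3.

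Of 4 core pluripotency genes 1 was called. Pou5f1, given above, changed by -0.01 ± 0.10 (adjusted p = 0.967), and its partner Sox2 by 0.01 ± 0.11 (adjusted p = 0.979), with 155, 125, 168 and 149 FPKM at number 10, against 175, 149, 133 and 137 FPKM at number 4. The sign of the Sox2 change flipped under both other scalings, and that of Pou5f1 with the fibroblast score as a covariate. Nanog, the homeodomain factor of the same network, had 244, 171, 201 and 180.3 FPKM at number 10, against 255, 253, 273 and 289 FPKM at number 4, a change of -0.44 ± 0.11, adjusted p = 0.035, lost in 10 of 17 alternatives at an adjusted p up to 0.0998. Of 12 genes that work with the network 4 rose (2 without KIXV10, KIXD4 or KIXV4, 7 without KIV10, 2 with a replicate block, 8 with the fibroblast score as a covariate, 7 with small RNA genes left out). They were the chromatin factors Utf1 (0.64 ± 0.17, adjusted p = 0.0404, lost in 10 of 17 alternatives at an adjusted p up to 0.106), Dppa2 (0.47 ± 0.09, adjusted p = 0.0102), Phc1 (0.56 ± 0.12, adjusted p = 0.0203, lost in 4 of 17 alternatives at an adjusted p up to 0.0717) and Zscan10 (0.49 ± 0.09, adjusted p = 0.00911). Within KIX 9 of the 12 rose and none fell, and within KI 3 rose (0 to 1 without KID10, KIV10, KIXD10, KIXV10 or KID4, 1 after median scaling) and Tdgf1, a Nodal coreceptor, fell (-0.48 ± 0.09, adjusted p = 0.0117, lost without KID4 and without KIV10 at an adjusted p up to 0.0543).

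Of 13 naive pluripotency genes only Klf5, a factor that maintains that state, passed the pooled test (0.37 ± 0.10, adjusted p = 0.048, lost in 11 of 17 alternatives at an adjusted p up to 0.117). For 3 of the 13 the change was lower in KIX than in KI (1 without KIXD4 or KIXV4), against 13.9% of all genes tested. For none was it higher (2 without KID10, 1 without KIV4, 2 with a replicate block), against 8.09%. The median difference was -0.021. Within KIX Klf2, Klf5, Fgf4 and Nr0b1 rose while Klf4, Tbx3, Tfcp2l1, Prdm14 and Tcl1 fell. Within KI Klf4 and Nr0b1 rose and Tcl1 fell. Apart from Klf4 and Tcl1 within KIX, each of these calls was lost in 2 to 7 of 14 alternatives. Klf4, one of the reprogramming factors, had 42.2, 38.5, 39.4 and 36.2 FPKM at number 10, against 28.9, 29.9, 65.6 and 54.5 FPKM at number 4, so its change was -0.65 ± 0.10 within KIX and 0.44 ± 0.10 within KI (difference -1.09 ± 0.14, adjusted p = 0.00789). Myc, another reprogramming factor, had 33.8, 37.0, 41.1 and 42.0 FPKM at number 10, against 16.7, 21.0, 79.4 and 63.5 FPKM at number 4, changes of -0.76 ± 0.13 within KIX and 0.88 ± 0.13 within KI (difference -1.64 ± 0.19, adjusted p = 0.00672). For both genes the KIX4 libraries were the highest of the 8 and the KI4 libraries the lowest. Klf4, Myc and the other naive genes but Klf5 were named after their values were seen.

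Genes of the primed or formative epiblast, the later pluripotent state that precedes lineage choice, rose within KIX. Of 10 such genes 7 rose (4 without KIXD10, KIXV10, KIXD4 or KIXV4, 4 with no filter) and 2 fell (0 without KIXD10, KIXV10, KIXD4 or KIXV4, 0 with no filter) within KIX, with a median of 0.723. Within KI 1 rose (0 without KIV10, 2 without KID10) and 3 fell (1 without KID4 or KIV4, 6 without KIV10), with a median of -0.285. For 7 of the 10 the change was higher in KIX (2 to 4 without KIXD10, KIXV10, KID4, KIXD4 or KIXV4, 4 with no filter), for none lower. Pou3f1, a POU factor of that state, had 28.5, 36.4, 49.4 and 58.3 FPKM at number 10, against 21.3, 16.6, 7.61 and 7.72 FPKM at number 4, a change of 2.66 ± 0.15 within KIX. Within KI its change was 0.75 ± 0.15, adjusted p = 0.0137, lost without KIV10 at an adjusted p of 0.0648. Its pooled change was 1.70 ± 0.35, adjusted p = 0.0165, lost with a replicate block at an adjusted p of 0.0729. All number 10 libraries were above all number 4 libraries. Lef1, a Wnt effector, had 4.43, 7.26, 7.37 and 7.84 FPKM at number 10, against 10.5, 11.2, 1.30 and 1.81 FPKM at number 4, and rose within KIX (1.76 ± 0.19, adjusted p = 0.00132) but fell within KI (-0.82 ± 0.19, adjusted p = 0.0223, lost in 3 of 14 alternatives at an adjusted p up to 0.081). Fgf5, the classical mark of the primed epiblast, went against these: it fell (-1.40 ± 0.36, adjusted p = 0.0365, lost in 8 of 17 alternatives at an adjusted p up to 0.0904), with 1.35, 3.92, 0.885 and 1.30 FPKM at number 10, against 7.55, 10.4, 3.51 and 4.62 FPKM at number 4. Otx2, a factor of the same state that was named after its values were seen, fell within KI (-0.90 ± 0.16, adjusted p = 0.00797).

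The de novo DNA methyltransferases, which set methylation on unmodified DNA, differed by prefix. All 3 rose within KIX and none passed within KI (1 without KID10 or KIV10). Dnmt3a had 24.5, 37.2, 48.7 and 52.4 FPKM at number 10, against 25.4, 27.0, 11.4 and 12.7 FPKM at number 4, a change of 1.98 ± 0.17, adjusted p = 0.000519 within KIX and of 0.20 ± 0.17 (adjusted p = 0.412) within KI. The difference was 1.79 ± 0.24, adjusted p = 0.00865. Dnmt3b had 145, 188, 203 and 239.6 FPKM at number 10, against 123, 160.1, 68.8 and 75.6 FPKM at number 4, a change within KIX of 1.60 ± 0.17, adjusted p = 0.00103 and a difference of 1.37 ± 0.23, adjusted p = 0.0132, lost without KIXD4 at an adjusted p of 0.061. Dnmt3l, a catalytically inactive cofactor of the other two, had 135, 106, 203 and 190.2 FPKM at number 10, against 110.0, 105, 44.8 and 45.7 FPKM at number 4, a change within KIX of 2.09 ± 0.11, adjusted p = 0.00012 and a difference of 1.94 ± 0.15, adjusted p = 0.00318. In each gene the KIX4 libraries were the lowest of the 8 and the KIX10 libraries the highest. Of these groups, KIX4 had Mir203 and KIX10 was listed at 0 for it, and a part of the microRNA in these differences was not tested. The pooled changes did not pass, with adjusted p of 0.0603 for Dnmt3a, 0.0576 for Dnmt3b and 0.0659 for Dnmt3l. The number called pooled was 1 to 2 without KID10 or KIV4, 2 with the fibroblast score as a covariate or with small RNA genes left out. At number 1, Dnmt3a stood at 40.8, 38.6, 26.1 and 24.9 FPKM.

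Dnmt3a and Dnmt3b were on a list of 8 reported miR-203 targets, of which 7 were tested. On that list Socs3, an inhibitor of cytokine signalling, rose in the pooled comparison (0.32 ± 0.06, adjusted p = 0.0128, lost in a fit over the 12 iPSC libraries at an adjusted p of 0.0951). Within KIX Socs3, Dnmt3a and Dnmt3b rose and Bmi1, a Polycomb subunit, fell (-0.41 ± 0.10, adjusted p = 0.0205, lost in 4 of 14 alternatives at an adjusted p up to 0.124). Within KI Socs3 and the mesenchymal factors Snai2 (0.78 ± 0.11, adjusted p = 0.00364) and Zeb2 (0.82 ± 0.14, adjusted p = 0.00824) rose. The call of Socs3 was lost in 3 of 14 alternatives within KIX and in 10 of 14 within KI. The median change of the 7 was -0.066 within KIX and 0.234 within KI.

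The libraries KIXD4 and KIXV4 also held transcripts that were low in the other 6. The genes of this paragraph were picked for the size of their difference between prefixes, so that difference is no separate support. Trim43a, Bhmt and Slc1a1 reached 1 FPKM in KIXD4 and KIXV4 only, and so were tested only through the group where they were high. Pramel7, a naive and inner cell mass gene, had 2.36, 1.26, 2.99 and 2.05 FPKM at number 10, against 2.00, 1.72, 19.3 and 17.7 FPKM at number 4, a difference between the changes of -2.43 ± 0.29, adjusted p = 0.00711. Trim43a, known from the mouse preimplantation embryo and with close copies that may share its reads, had 0.205, 0.128, 0 and 0.0206 FPKM at number 10, against 0.0316, 0.0338, 4.31 and 3.85 FPKM at number 4, a difference of -2.50 ± 0.13, adjusted p = 0.000679. Bhmt, a methyltransferase of homocysteine metabolism, had 0.188, 0, 0.167 and 0.0823 FPKM at number 10, against 0.0824, 0.101, 4.58 and 4.50 FPKM at number 4, a difference of -2.30 ± 0.15, adjusted p = 0.00165. The other 6 libraries had less than 3 FPKM of each. Dio3, the deiodinase that inactivates thyroid hormone, had 1.53, 1.53, 0.580 and 0.506 FPKM at number 10, against 1.82, 1.64, 9.81 and 8.86 FPKM at number 4 (difference -2.63 ± 0.12, adjusted p = 0.000529), the glutamate transporter Slc1a1 differed by -2.13 ± 0.14, adjusted p = 0.00165, and the epidermal gene Krtdap by -2.27 ± 0.29, adjusted p = 0.00789. Sp110, a nuclear body protein that interferon induces, had a difference of -3.12 ± 0.21, adjusted p = 0.00165. It had 7.68, 10.2, 4.91 and 5.71 FPKM at number 10, against 0.862, 0.893, 10.5 and 8.39 FPKM at number 4, low only in the KI libraries of number 4.

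**Figure D4:**
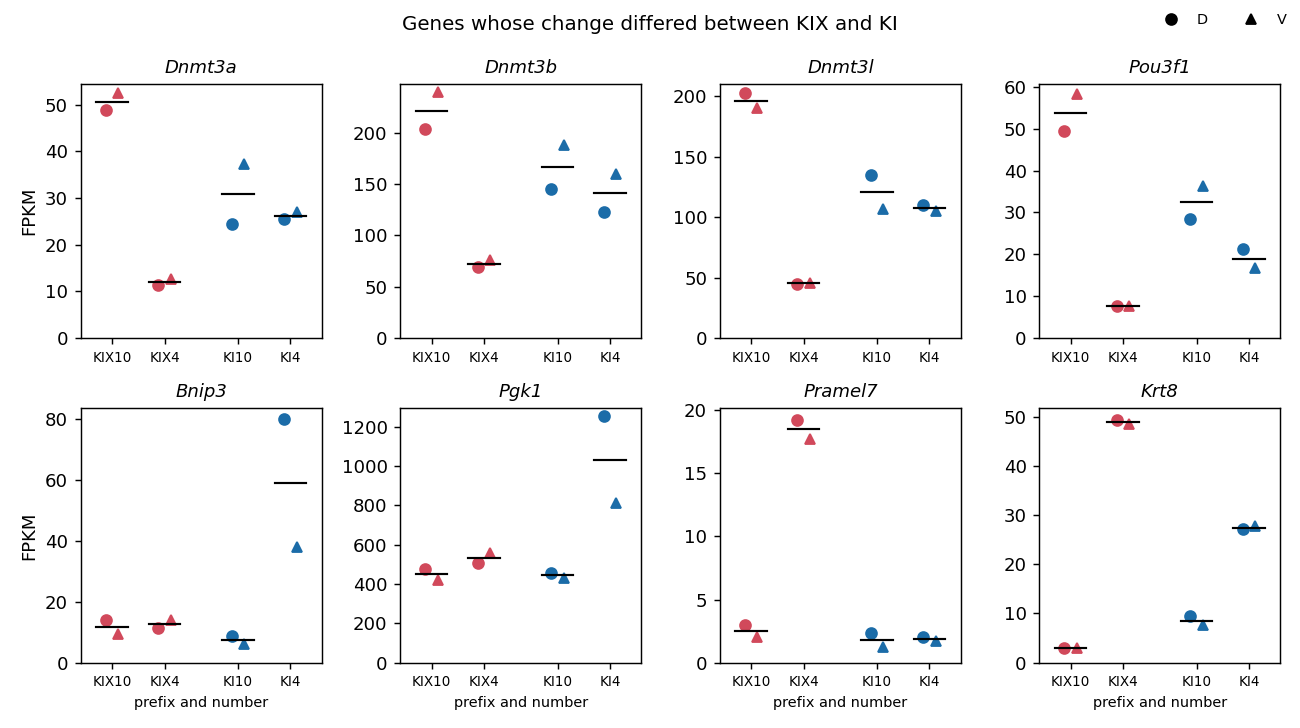
FPKM of 8 genes whose change differs between prefixes, in the groups KIX10, KIX4, KI10 and KI4, with points for libraries and bars for means, from 0. Dnmt3a, Dnmt3b, Dnmt3l and Pou3f1 are lowest in KIX4, Pramel7 and Krt8 are highest there, and Bnip3 and Pgk1 are highest in KI4, with Pgk1 at 432 and 455 FPKM in KI10 against 812 and 1252 FPKM in KI4.

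Glycolysis separated the prefixes too, and the hypoxia response did so for a smaller part of its genes, with the KI libraries of number 4 standing apart. Cells turn on both through HIF factors when oxygen is low. Within KI 14 of 16 tested glycolysis genes fell (7 to 9 without KIV10 or KID4) and none rose (1 without KID4, 1 with a replicate block or with small RNA genes left out), with a median of -0.706. Within KIX 3 rose (1 without KIXV4, 7 without KID4 or KIV4) and 3 fell (1 without KIXV10 or KIXD4), with a median of 0.147. Those KIX counts were near the shares of all genes tested, 15.4% higher and 15.3% lower. Within KI 10.2% of all genes tested fell. For 13 genes the change was higher in KIX (3 to 8 without KID10, KIV10, KIXD10, KIXV10, KIXD4 or KIXV4, 8 with no filter), for 1 lower (0 without KIXD4). Pgk1, a kinase of lower glycolysis, had 455, 432, 477 and 423 FPKM at number 10, against 1252, 812, 506 and 557 FPKM at number 4, a change of -1.18 ± 0.19, adjusted p = 0.00562 within KI. Ldha, lactate dehydrogenase A, had 492, 568, 688 and 721 FPKM at number 10, against 1138, 909, 604 and 610.2 FPKM at number 4, a change of -0.94 ± 0.12, adjusted p = 0.00253 within KI. Both were named after their values were seen, and in both KID4 was the highest of the 8 and KIV4 the next. In the pooled comparison the glucose transporter Slc2a3 (-0.77 ± 0.10, adjusted p = 0.00227) and the phosphofructokinase Pfkp (-0.62 ± 0.12, adjusted p = 0.0124, lost with the fibroblast score as a covariate at an adjusted p of 0.0694) fell. Slc2a3 had 145, 111, 131 and 115 FPKM at number 10, against 223, 188, 219 and 228 FPKM at number 4.

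Of 15 tested hypoxia-responsive genes outside glycolysis 10 fell within KI and 4 within KIX (2 without KIXD10, KIXV10, KIXD4 or KIXV4). None rose within KIX, nor within KI (1 without KID4, 1 with small RNA genes left out). The 4 that fell within KIX also fell within KI. For 4 of the 15 the change was higher in KIX than in KI, for none lower. That 4 became 0 without KIXD10 or KIXD4, 2 without KIV10, KIXV10 or KIXV4, and 9 without KIV4. Bnip3, a mitophagy receptor, had 8.89, 6.16, 14 and 9.52 FPKM at number 10, against 79.9, 38.0, 11.2 and 14 FPKM at number 4, a change of -2.74 ± 0.35, adjusted p = 0.00237 within KI and a difference between prefixes of 2.63 ± 0.49, adjusted p = 0.0163, lost without KIXD4 and without KIXD10 at an adjusted p up to 0.0712. Ndufa4l2, a HIF target of the mitochondrion, had 1.72, 1.52, 2.07 and 1.61 FPKM at number 10, against 18.8, 6.82, 1.74 and 1.07 FPKM at number 4, a difference of 2.50 ± 0.55, adjusted p = 0.0232, lost in 5 of 14 alternatives at an adjusted p up to 0.0799. The spread between KID4 and KIV4 was wide in both, with KID4 more than 2-fold above KIV4, and the KI10 libraries lay below both. The lactate exporter Slc16a3 (2.4 ± 0.28, adjusted p = 0.00711) and the uridine phosphorylase Upp1 (2.30 ± 0.21, adjusted p = 0.00434) had differences of the same sign. So did Aire, a transcriptional regulator known from the thymus and on no hypoxia list (2.63 ± 0.32, adjusted p = 0.00711). Aire was lowest in KIX4, with 2.43, 1.35, 5.14 and 3.73 FPKM at number 10, against 5.21, 3.54, 0.581 and 0.666 FPKM at number 4. Pooled falls were called for Vegfa, the angiogenic factor (-0.69 ± 0.09, adjusted p = 0.00284), and Ddit4, an inhibitor of mTORC1 (-1.55 ± 0.30, adjusted p = 0.0129, lost with the fibroblast score as a covariate at an adjusted p of 0.068). Egln1, a HIF hydroxylase (-0.75 ± 0.17, adjusted p = 0.0243, lost in 5 of 17 alternatives at an adjusted p up to 0.0847), Mxi1 (-0.57 ± 0.15, adjusted p = 0.0365, lost in 8 of 17 alternatives at an adjusted p up to 0.181) and Ankrd37 (-1.69 ± 0.44, adjusted p = 0.0402, lost in 9 of 17 alternatives at an adjusted p up to 0.207) fell as well. Vegfa had 7.05, 6.72, 5.75 and 5.71 FPKM at number 10, against 12.1, 9.56, 11.1 and 10.6 FPKM at number 4. At number 1, Bnip3 was at 58.1, 53.5, 86.4 and 70.5 FPKM and Pgk1 at 1233, 1181, 1601 and 1368 FPKM, so both prefixes were above KIV4 there.

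Extracellular matrix genes rose mostly within KI, where the fibroblast score was 5.9967 and 6.1804 at number 10, against 5.2988 and 5.4513 at number 4; its part in these rises was not tested within KI. Of 12 collagens 5 rose in the pooled comparison (3 without KID10, KID4, KIV4, KIXD4 or KIXV4, 3 with no filter, 2 with a replicate block), 3 within KIX (1 without KIXD10, KIXD4 or KIXV4, 1 with no filter or after quantile normalization, 5 with small RNA genes left out) and 11 within KI, and none fell. Col3a1, a fibrillar collagen, had 622, 692, 409.9 and 432 FPKM at number 10, against 208, 269.7, 208 and 240.4 FPKM at number 4, a change of 1.19 ± 0.18, adjusted p = 0.00473. Col4a1 (0.65 ± 0.12, adjusted p = 0.0113), Col4a2 (0.61 ± 0.13, adjusted p = 0.0185, lost with the fibroblast score as a covariate and with a replicate block at an adjusted p up to 0.0575), Col8a1 (0.94 ± 0.23, adjusted p = 0.0317, lost in 8 of 17 alternatives at an adjusted p up to 0.0766) and Col1a2 (0.69 ± 0.17, adjusted p = 0.0346, lost in 8 of 17 alternatives at an adjusted p up to 0.0839) rose too. The collagen score was 6.4771, 6.6433, 6.0382 and 6.0701 at number 10, against 5.466, 5.7893, 5.7752 and 5.7558 at number 4. Of 11 tested fibroblast markers 9 rose within KI, while within KIX 2 rose (Lum and Postn) and 2 fell (Pdgfra and Twist2), the calls of Lum, Pdgfra and Twist2 being lost in 6, 7 and 3 of 14 alternatives. These counts within KIX were near the shares of all genes tested, 15.4% higher and 15.3% lower. Postn, a matrix protein, passed the pooled test, with 109, 132, 80.1 and 72.6 FPKM at number 10, against 40.9, 45.6, 45.2 and 45.2 FPKM at number 4 (1.10 ± 0.17, adjusted p = 0.00543). With the fibroblast score as a covariate 3 collagens rose.

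The remaining lists had at most 1 gene called in either direction in the pooled comparison on the deposited values. Over all genes tested, 7.63% were called higher and 5.26% lower there. The shares were 15.4% higher and 15.3% lower within KIX, and 16.4% higher and 10.2% lower within KI. A count near these shares, such as that of replication genes that rose within KIX, is no result about its list. None of 12 DNA replication genes was called there (1 with the fibroblast score as a covariate), while 2 rose within KIX (1 without KIXD10, KIXV10 or KIXD4) and 7 fell within KI (1 to 4 without KID10, KIV10, KIXD10, KIXV10 or KID4). None of 10 mitosis genes was called (2 with the fibroblast score as a covariate), while 4 rose within KIX (0 to 1 without KIXD10, KIXV10, KIXD4 or KIXV4, 1 after quantile normalization, 2 after median scaling) and 4 fell within KI (0 to 2 without KIV10, KIXD10, KIXV10 or KID4). Of 12 cholesterol synthesis genes 9 fell within KI (0 to 5 without KID10, KIV10, KID4, KIXD4 or KIXV4). Of 18 respiratory chain genes 10 fell within KI (1 to 3 without KID10, KIV10, KIXD10, KIXV10, KID4, KIXD4 or KIXV4, 16 after median scaling) and none was called within KIX (1 without KID4 or KIV4, 3 after quantile normalization). At the imprinted Dlk1-Dio3 locus the long noncoding RNA Meg3 rose (1.03 ± 0.19, adjusted p = 0.0113), with 53.5, 72.4, 75.6 and 72.4 FPKM at number 10, against 35.8, 46.0, 24.4 and 28.3 FPKM at number 4. Dio3 of the same locus, given above, went the other way. Its change was -2.74 ± 0.09 within KIX (adjusted p = 2.65e-05) and -0.11 ± 0.09 within KI (adjusted p = 0.383). Pooled it did not pass (-1.43 ± 0.49, adjusted p = 0.0909). Zscan4f, of a family that marks 2-cell-like cells, rose (0.73 ± 0.19, adjusted p = 0.0425, lost in 10 of 17 alternatives at an adjusted p up to 0.108), and has near-identical paralogs that may share its reads. Among the 8 tested genes of the 2-cell-like list, 7 reached the level for testing in the number 10 libraries alone. In the number 4 libraries alone 1 did so, and for most of the list the filter thus favoured a rise. The atrial myosin gene Myl7 fell (-0.96 ± 0.15, adjusted p = 0.00581). Of 7 tested blood and immune cell markers Cd68, a macrophage glycoprotein, rose (0.67 ± 0.13, adjusted p = 0.0144, lost with the fibroblast score as a covariate at an adjusted p of 0.0517) and Pecam1, of endothelium and leukocytes, fell (-0.47 ± 0.13, adjusted p = 0.0422, lost in 9 of 17 alternatives at an adjusted p up to 0.206), while the leukocyte marker Ptprc was too low to test. Of the 6 keratinocyte markers 4, with Krt5 and Trp63 among them, were too low to test.

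**Figure D5:**
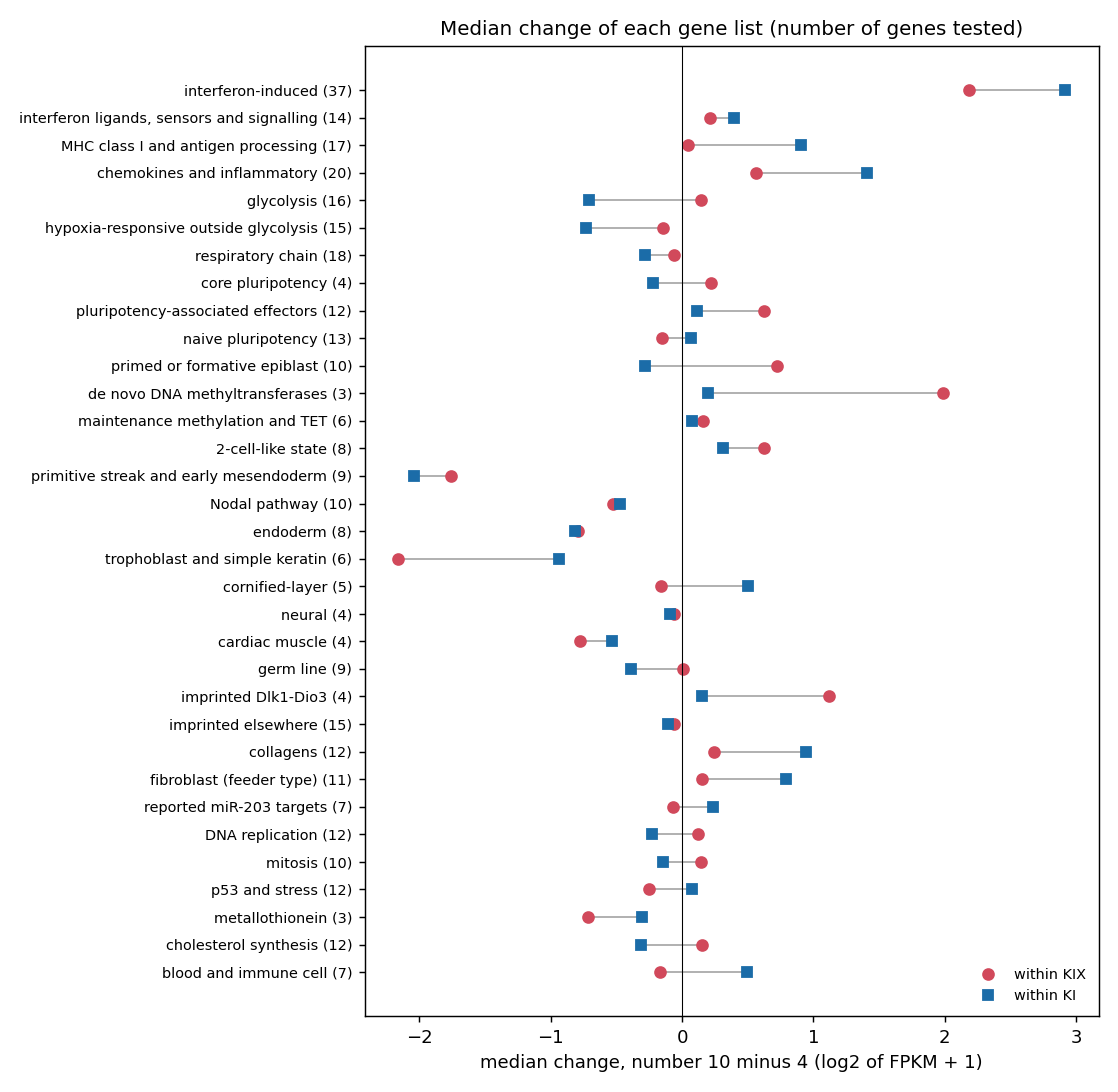
Median change in log2(FPKM + 1) between numbers 10 and 4 for each gene list with at least 3 tested genes, within KIX (circles) and within KI (squares); the vertical line marks 0. The interferon-induced list lies farthest right at 2.184 and 2.916, the streak list far left at -1.756 and -2.039, and the de novo DNA methyltransferases are apart, at 1.984 within KIX and 0.198 within KI.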

How the data were processed

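Gene expression was measured by sequencing polyA RNA of 16 libraries, of which 8 were compared here. Per the labels' protocols, the libraries were made with a stranded TruSeq kit (dUTP) and run on a HiSeq2500. The submitters' processing notes list FastQC for quality, Bowtie 1.0.0 and TopHat2 2.0.10, SAMtools 0.1.19, and Cufflinks 2.2.1, and name GRCm38 (mm10); settings and annotation version are not given in the sources used here. The values that the authors deposited are FPKM for 23284 genes. Such values are shares, so abundant transcripts lower the others, near-identical genes can share fragments, and a 0 may stand for an estimate that failed. A search for whole reads in the low values found 55.5% of 18291 values, from 3446 genes, within 0.1 of a whole number, where an even spread gives 20%. As the other values did not come out whole, reads were not recovered, the depth is unknown and no counting interval is given.

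Deposited FPKM were tested after a log2(FPKM + 1) transformation in limma 3.58.1 (R 4.3.3), using trended empirical Bayes, two-sided tests and the Benjamini-Hochberg threshold of 0.05, over 12877 genes. The pooled test had 1 mean per number, and the tests within KIX and KI and of their difference had 1 mean per prefix and number. Named were the 10 largest rises and falls among called genes without overlap and most of the 8 largest differences between prefixes in each direction, leaving out unnamed models and small RNAs. Of those differences Ndufs5 (6.19), Rps27 (4.045) and Rpl34 (-2.52) were not described and are not counted among the named genes below. D and V could lie far apart in them, as at 0.953 and 18.1 FPKM in KI4 for Ndufs5 and 717 and 2818 FPKM in KI10 for Rps27. Also named were up to 6 called genes per list, apart from some not reported here, and a few chosen after their values were seen, marked so, with Mavs, Irf1, Hand1, Wnt8a, Tdgf1, Bmi1, Snai2, Zeb2, Lum, Pdgfra and Twist2 among them. The comparison, its members and the gene lists were chosen with earlier results of these data known. Alternatives were another pseudocount, no filter, 2 scalings, each library left out, replicate blocks, 12 libraries and a fibroblast covariate. Promoter and microRNA sequences are RefSeq's, on GRCm38.p6.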

Additional observations from a re-analysis of the deposited data

Results flagged for a closer look

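Among the 4 libraries of a number, 1 library stood far from the other 3 in 11 of 312 gene and number groups examined (3.53%), where chance gives about 5% of groups. KIV10 was the far library 4 times, all for streak or endoderm genes. Cer1 was at 1.67 FPKM in KIV10, against 0 to 0.179 FPKM in the other number 10 libraries, and Eomes at 5.19 FPKM, against 1.48 to 1.70 FPKM. Lhx1 was at 0.752 FPKM in KIV10, against 0.0401 to 0.0914 FPKM, and Mixl1 at 1.07 FPKM, against 0.145 to 0.197 FPKM. KID10 was low for Lef1 (4.43 FPKM, the other 3 at 7.26 to 7.84) and Meg3 (53.5 FPKM, the other 3 at 72.4 to 75.6). KIXV10 was low for Gata6, at 0.594 FPKM with the other 3 at 0.894 to 0.953. At number 4, KIV4 was high for T (33.0 FPKM, the other 3 at 18.3 to 19.9) and Klf5 (57.1 FPKM, the other 3 at 47.1 to 47.8). KID4 was low for Postn (40.9 FPKM, the other 3 at 45.2 to 45.6) and Col6a3 (20.9 FPKM, the other 3 at 27.2 to 28.5).

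Mir203, listed at 0 in KIX10, KI10 and KI4, is given no difference. For 81 of the 156 named genes the change differed between the prefixes by limma's test of the difference at an adjusted p under 0.05. Of all genes tested 22% passed. Some of the 156 were picked for the size of that difference or after their values were seen, so the 2 shares cannot be compared. The values are the change within KIX minus that within KI, in log2(FPKM + 1), and a number in brackets after a gene counts the alternatives, of 14 (12 for Bhmt, Hand1, Slc1a1 and Trim43a, which a filter left untested in the others), that ended its call. Of the 81, 34 lost the call under none and 47 under 1 or more. Among interferon genes and signal carriers the difference was -1.25 for Ifit1 (10), -1.51 for Isg15 (2), -1.10 for Irf7 (1), -1.37 for Xaf1, -3.12 for Sp110, -0.90 for Jak1, -0.91 for Jak2 (7) and -0.66 for Mavs (5). In antigen presentation it was -0.79 for Tap1 (7), -0.95 for H2-T22 (1), -1.0 for H2-K1 (2), -0.84 for H2-D1 (2), -1.47 for H2-Q6 (1), -1.09 for H2-Q7 (6) and -0.96 for B2m. Chemokines and inflammatory genes gave -2.10 for Ptx3 (1), -0.92 for Cxcl11 (7), -1.19 for Cxcl9, -1.22 for Vcam1 (2), -1.52 for Ccl5 (3), -1.45 for Cxcl1, -1.51 for Cxcl5, -1.56 for Saa3 (8) and -1.09 for Ccl2. All of these immune genes were lower in KIX in that sense, none higher.

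Pluripotency genes gave 0.43 for Pou5f1 (9), 0.87 for Utf1 (4), 0.60 for Phc1 (1), 0.77 for Tdgf1 (2), -1.09 for Klf4, -1.64 for Myc, -0.84 for Tbx3 (11) and -1.02 for Tcl1 (2). Primed epiblast genes and de novo methyltransferases gave 1.91 for Pou3f1, 2.58 for Lef1, 1.01 for Otx2 (3), 1.79 for Dnmt3a, 1.37 for Dnmt3b (1) and 1.94 for Dnmt3l. For Nodal pathway, mesoderm and endoderm genes the difference was -1.16 for Lefty2, -0.99 for Pcsk6, -1.40 for Furin, 0.40 for Gdf3 (4), -1.08 for Hand1 (3) and -0.59 for Gata4 (12). The keratins gave -2.09 for Krt8, -1.37 for Krt18 and -1.29 for Krt7. Genes high in the KIX4 libraries gave -2.63 for Dio3, -2.50 for Trim43a, -2.43 for Pramel7, -2.30 for Bhmt, -2.27 for Krtdap and -2.13 for Slc1a1.

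Glycolysis genes gave 0.94 for Pgk1 (7), 1.16 for Ldha (1), 1.00 for Pfkl, 1.15 for Eno1, 1.11 for Pdk1, 0.61 for Gapdh (8) and -0.63 for Hk1 (1). Hypoxia-responsive and related genes gave 2.63 for Bnip3 (2), 2.50 for Ndufa4l2 (5), 2.2 for Egln3 (2), 0.71 for Higd1a (7), 2.4 for Slc16a3 and 2.30 for Upp1. Matrix and fibroblast genes gave -1.04 for Col8a1 (7), -0.74 for Col1a2 (4), -0.55 for Col4a1 (8), -0.56 for Col4a2 (8), -0.71 for Postn (4), -0.52 for Pdgfra (7), -0.87 for Twist2, -0.89 for Snai2 (2) and -0.96 for Zeb2 (5). The remaining values were 2.63 for Aire, 0.86 for Meg3 (8), -0.63 for Bmi1 (6), 0.50 for Mcm2 (2), 0.37 for Mcm5 (6) and 0.78 for Sqle.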

How the results depend on the processing

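With the prefix and letter as a replicate block, 914 genes were called in the pooled comparison, 829 of them shared with the 1659 called without it, and with a mean for each prefix and number 4678 were called. Leaving out 1 library gave 828 to 1416 calls, with 1091 without KID10, 911 without KIXV10, 1010 without KIXD4 and 828 without KIXV4. Within KI, where 3427 genes were called, leaving out 1 library gave 1665 to 4762, with 2198 without KID10, 1665 without KIV10 and 1671 without KID4. Within KIX, where 3949 were called, the range was 1518 to 4712, with 1704 without KIXD10, 1566 without KIXV10, 1518 without KIXD4 and 1661 without KIXV4. Changes that differed between the prefixes, 2828 genes, ranged over 378 to 3912, with 1450 without KIV10, 523 without KIXD10, 1048 without KIXV10, 378 without KIXD4 and 1250 without KIXV4. Genes changed the same way in both prefixes, 1069, ranged over 495 to 1502, with 705 without KIV10, 562 without KIXD10, 497 without KIXV10, 561 without KIXD4 and 495 without KIXV4. Each such fit leaves a prefix and number with 1 library, which is assumed to vary like the rest.

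Pseudocount, filter, scaling, letter block, a fit over the 12 iPSC libraries and the fibroblast score as a covariate kept each total they were run on within 1.5 times, and so did leaving out small RNA genes, which was chosen after seeing the data (1768 pooled calls). By direction, lower pooled calls, 677, became 1155 after quantile normalization, and lower calls in both prefixes, 423, became 716. Lower calls within KI, 1318, became 2290 after quantile normalization and 2455 after median scaling, which also gave 1629 changes higher in KIX, against 1042. With the fibroblast score 1867 genes were called, 993 of them shared with the 1659. The pooled change of Sox2 was -0.0341 after quantile normalization and -0.0449 after median scaling, and -0.0534 to 0.0887 with 1 library left out, and that of Pou5f1 was 0.2179 with the fibroblast score and -0.0618 to 0.0571 with 1 library left out. No other named gene reversed. Of 5958 values for named genes under an alternative, 5203 kept direction and side of the threshold, 723 lost the call and 22 gained it. The cause of these losses was not tested. Same-code libraries did not deviate together (r = -0.149 to -0.005), so the codes were not taken as pairs. The unknown depth gives no counting error for genes near 0 FPKM.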
